A study of Homo sapiens with 2 samples.

Results

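The TMBIM genes encode small proteins that cross the membrane several times and share the BAX inhibitor domain. Genes around GHITM, the mitochondrial member of this family, were examined in MDA-MB-231 cells after an siRNA against NSD3L. They numbered 6: the family members GHITM (also called TMBIM5), TMBIM1, TMBIM4 and TMBIM6, and the mitochondrial calcium and protease partners LETM1 and AFG3L2. They were taken by gene symbol from the probe annotation, which gave 1 probe for each, so 6 probes of 48701 and 6 genes of 18774 with a name. GHITM was selected on its measured value, the low ratio between these 2 arrays, and the others for their relation to it, so its own ratio is a description.

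MDA-MB-231 is an established human cell line of a highly invasive breast cancer. One culture was transfected with 20 nM of an siRNA against NSD3L, which is the long form of NSD3, a gene for a histone methyltransferase, and the other with an siRNA of no specific target, whose concentration the labels do not give. Both were transfected again after 48 h and RNA was collected 48 h later. Each group was 1 sample on 1 Illumina array, so the siRNA, the culture and the array cannot be told apart, no value has an error between cultures, and no test of any gene was possible.

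Most proteins of the family sit in the membranes of the endoplasmic reticulum, the Golgi apparatus or the lysosome, where they lower cell death signals and take part in calcium leak. GHITM is the member of the mitochondrial inner membrane. It helps to keep the shape of the cristae, holds cytochrome c there, and has been described as a calcium and proton exchanger that also restrains the AFG3L2 protease. LETM1 is a cation and proton exchanger of the same membrane, and AFG3L2 is a subunit of its matrix-facing AAA protease, which also removes unassembled parts of the calcium uniporter.

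Values are linear intensities with the background left in, and the log2 ratio sets the array of the NSD3L siRNA over that of the control. A probe was called above the floor when it read over 40.9 on the NSD3L siRNA array and over 41.0 on the control array, the upper edge of the background. All 6 genes passed on both arrays, as did 10545 genes in all, with a median log2 ratio of -0.0041 (SD 0.33 across genes). The 3 probes of NSD3 read 37.6 to 41.6 with the NSD3L siRNA and 41.9 to 55.3 with the control. The reading of 55.3 came from a probe annotated to another transcript than the other 2, which read 41.9 and 45.0 with the control. Which transcript is the long form was not checked. Only 1 of the 3 was above the floor on both arrays, so the depletion of the target could not be sized. The line's markers VIM, CD44, CAV1, EGFR, AXL, MET and ANXA1 were above the floor on both arrays, while FN1 and SPARC were not. Of the markers of other cells, 5 of 10 luminal genes passed, beside 10545 of 18774 genes with a name. KRT8, KRT18, CDH1, EPCAM and ERBB3 passed, KRT18 at 1731 against 1295, while ESR1, PGR, GATA3, FOXA1 and TFF1 did not. CDH1, at 47.6 against 45.4, and ERBB3, at 46.7 against 51.0 by its brightest probe, were near the floor. Of 7 fibroblast genes 1 passed, PDGFRB, near the floor at 55.4 against 55.6. Of 7 blood genes 3 passed, CD14, CSF1R and CD68, the last at 1195 against 1179. CD14, at 50.2 against 53.8, and CSF1R, at 47.5 against 57.5, were near the floor.

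GHITM read 971 under the NSD3L siRNA and 2960 under the control siRNA, for a log2 ratio of -1.61, or 3.05-fold lower. Its probe was ILMN_1728467, annotated to transcript NM_014394. In RNA from whole cultures, fewer cells with the transcript and less of it per cell cannot be told apart. Among all genes above the floor, 0.607% were more than 2-fold lower and 0.341% more than 2-fold higher, and GHITM held rank 4 from the lowest of 10545. That place depended on how the background was treated: GHITM held rank 48 when the most frequent intensity of each array was subtracted first, a step that spreads the ratios of dim genes, and ranks 2 to 7 under the other settings. The SD of the log2 ratio was 0.34 over the 1651 probes of similar brightness, with mean intensities from 636 to 16937. Of these probes 2 were as low as GHITM or lower, GHITM's own among them. GHITM has no other probe in the annotation, so no reading of another part of the transcript was at hand.

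TMBIM6, the BAX inhibitor 1 of the endoplasmic reticulum that dampens stress signals there, read 3014 under the NSD3L siRNA and 2690 under the control siRNA. Its log2 ratio of 0.16 was less than the SD of 0.34 over similarly bright probes, and 58.0% of those probes were as far from 0 or farther. The GHITM and TMBIM6 probes both lay in the brightest of the 10 brightness groups, and the log2 ratio of TMBIM6 was 1.77 above that of GHITM.

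**Figure D1:**
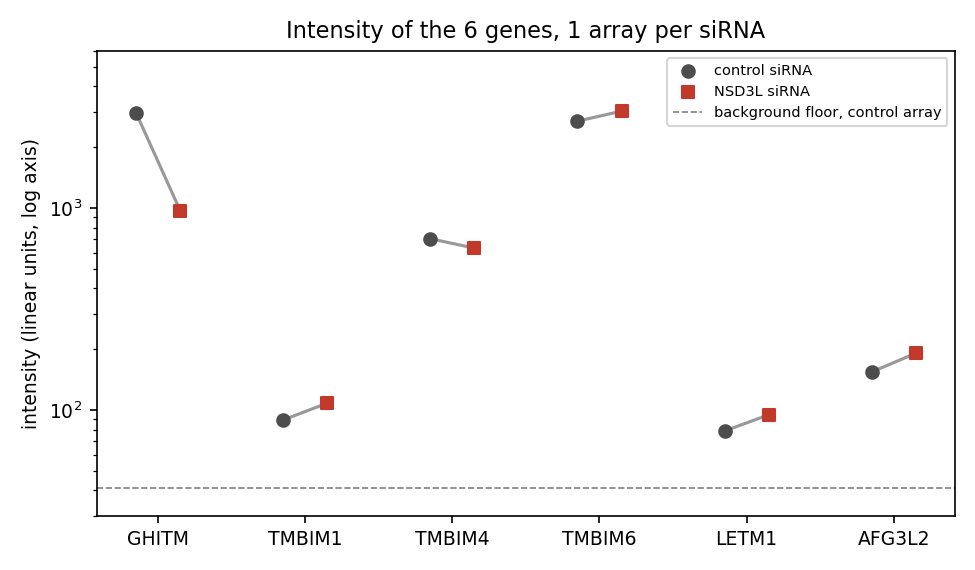
Intensity of the probe of each of the 6 genes on the control siRNA array (circles) and the NSD3L siRNA array (squares), in linear units on a log axis, with 1 array per siRNA and the floor of the control array dashed. GHITM goes from 2960 down to 971, while no other line spans as much as 1.5-fold; heights of different probes are not comparable levels.

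The stretches before the starts of these 2 genes are shown as those of a pair of relatives with bright probes. GHITM was chosen for its low ratio, and that of TMBIM6 was within the SD. TMBIM4 also lay in the brightest group. Each is the 250 bases before the start that RefSeq annotates in GRCh38.p14, on the plus strand, at chr10:84139259-84139508 for GHITM and chr12:49741307-49741556 for TMBIM6, the more upstream of 2 starts listed for TMBIM6. Capitals mark matches, on either strand, to the CCAAT box by its letters CCAAT and the GC box by its letters GGGCGG. They also mark CCGGAA, a form of the ETS site, and TGACG, part of the cyclic AMP response element. The shorter ETS core GGAA, which both stretches hold, was not searched. The TATA box was searched by its letters TATAAA.
GHITM: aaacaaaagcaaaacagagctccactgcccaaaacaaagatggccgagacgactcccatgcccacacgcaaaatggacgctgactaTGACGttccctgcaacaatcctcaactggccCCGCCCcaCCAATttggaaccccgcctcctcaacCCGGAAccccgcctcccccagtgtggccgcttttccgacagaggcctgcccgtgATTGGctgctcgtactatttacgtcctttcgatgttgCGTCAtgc
TMBIM6: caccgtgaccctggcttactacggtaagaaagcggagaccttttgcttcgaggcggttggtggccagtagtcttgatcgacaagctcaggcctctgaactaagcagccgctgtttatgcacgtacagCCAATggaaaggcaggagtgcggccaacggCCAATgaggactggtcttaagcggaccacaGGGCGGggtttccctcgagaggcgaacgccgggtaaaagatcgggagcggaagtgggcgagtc
The GHITM stretch had 2 matches to the CCAAT box, 1 to the GC box, 1 to CCGGAA, 2 to TGACG and none to the TATA box. The TMBIM6 stretch had 2 matches to the CCAAT box and 1 to the GC box, and none to the other 3. A start of TMBIM1 and that of AFG3L2, not shown, each had 1 match to TGACG. Those genes had log2 ratios of 0.27 and 0.31. No stretch was at hand for TMBIM4 or LETM1. Whether any match bears on a ratio was not tested. None of the marked matches overlapped. Over all 35116 stretches of this length in the RefSeq table, 32.0% held the CCAAT box, 42.6% the GC box, 14.5% CCGGAA, 21.2% TGACG and 10.7% the TATA box. GC content was 56.8% before GHITM and 58.4% before TMBIM6, against a median of 58% over all stretches. CpG pairs numbered 16 and 19, against a median of 11. A match is a match of letters and not a measured site.

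TMBIM4, a Golgi protein that lowers calcium release and cell death, read 633 under the NSD3L siRNA and 705 under the control siRNA. Its log2 ratio of -0.16 made it the only one of the other 5 genes on the lower side, 1.11-fold, and 59.5% of similarly bright probes were as far from 0. The gap between TMBIM4 and GHITM, the 2 lowest of the 6, was 1.45 on the log2 scale.

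TMBIM1, a protein of lysosomes and the Golgi apparatus that limits FAS signalling, read 108 under the NSD3L siRNA and 89.4 under the control siRNA, for a log2 ratio of 0.27. The SD over its similarly bright probes was 0.32. The gene lies wholly inside the annotated span of PNKD, whose own probe read 112 against 98.1, a log2 ratio of 0.19. Whether either probe reads transcripts of the other gene was not tested.

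The remaining family members were read from a list of the family. GRINA, also called TMBIM3, of the endoplasmic reticulum and Golgi, read 338 against 275, a log2 ratio of 0.30. FAIM2, a neuronal inhibitor of FAS, read 30.8 against 28.6 and was not above the floor on either array. Of the 5 family genes above the floor, 3 were higher and 2 lower, with a median log2 ratio of 0.16, and without GHITM the median of the other 4 was 0.22. GHITM was the only 1 of the 5 past 1.5-fold in either direction, where 4.06% of all genes were more than 1.5-fold lower and 3.63% more than 1.5-fold higher.

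LETM1 read 94.7 under the NSD3L siRNA and 78.7 under the control siRNA, for a log2 ratio of 0.27 beside an SD of 0.32 over similarly bright probes. AFG3L2 read 191 against 154, a log2 ratio of 0.31 beside an SD of 0.37. Both partners were on the higher side, opposite to GHITM, each by less than the SD of probes of their brightness, and 37.7% and 38.2% of those probes were as far from 0. In order of log2 ratio the 6 genes ran GHITM, TMBIM4, TMBIM6, LETM1, TMBIM1 and AFG3L2. The last 5 spanned 0.46 on the log2 scale, from -0.16 to 0.31. Steps between neighbours among them were smaller than the SD of similarly bright probes, while that from GHITM to TMBIM4 was larger. GHITM was chosen for its low ratio, so the size of its step is a description. With the mode of each array subtracted, the log2 ratios of TMBIM1 and LETM1 were 0.43 and 0.45, and with the gene density trend removed those of TMBIM4 and TMBIM6 were -0.033 and 0.083.

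**Figure D2:**
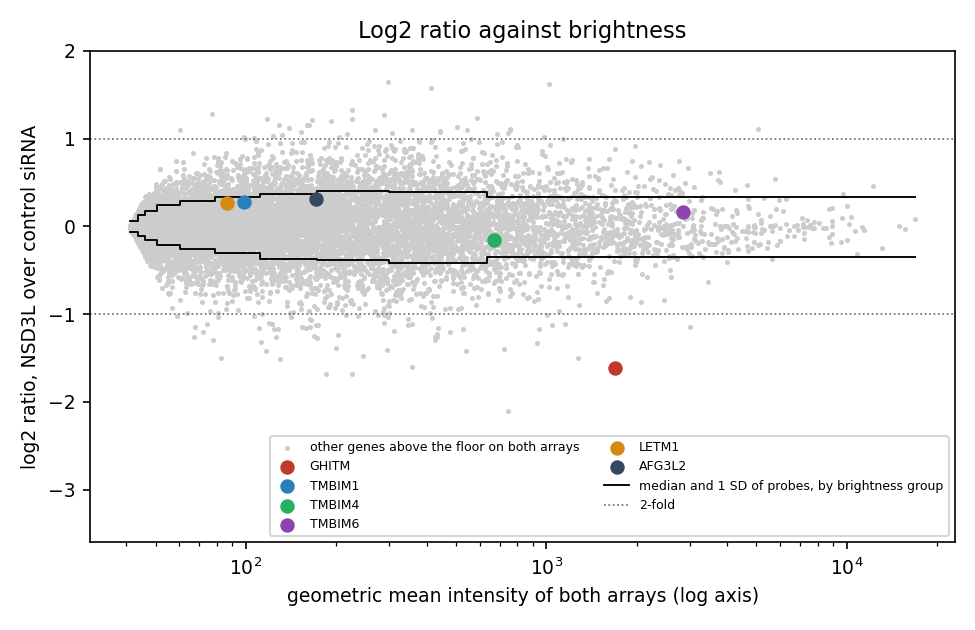
Log2 ratio, NSD3L over control siRNA, plotted against the geometric mean intensity of both arrays (log axis), for the 10545 genes above the floor (grey) and the 6 genes (colours), with the median plus and minus 1 SD of probes in 10 brightness groups (black lines) and 2-fold (dotted). GHITM lies at -1.61, far below the lines, and the other 5 genes lie between them.

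Lists of related genes are read here against all genes above the floor, of which 49.3% were higher, 3.63% more than 1.5-fold higher and 4.06% more than 1.5-fold lower. Other genes of mitochondrial calcium transport did not share one direction. SLC8B1, the sodium and calcium exchanger that moves calcium out of mitochondria, read 418 under the NSD3L siRNA and 225 under the control siRNA, for a log2 ratio of 0.89 and the highest among the genes of all mitochondrial lists. LETM2, the paralog of LETM1, read 48.1 against 52.7, near the floor, a log2 ratio of -0.13. Of the 6 uniporter genes above the floor, 2 were higher and 4 lower, with a median log2 ratio of -0.064 beside -0.0041 over all genes. The pore gene MCU read 170 against 120, a log2 ratio of 0.51. MICU2, a gatekeeper of the pore, read 597 against 901, a log2 ratio of -0.59, and was the only uniporter gene past 1.5-fold. SMDT1, whose product EMRE is cleared by AFG3L2 when unassembled, read 56.3 against 77.9 by its brighter probe, a log2 ratio of -0.47, while its other probe, at 39.7 against 35.8, was not above the floor.

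AFG3L2 was listed with the other inner membrane proteases, the prohibitins and proteases of the matrix. In that list 12 of 17 genes, AFG3L2 among them, were higher and 5 lower, beside 49.3% higher over all genes, with a median log2 ratio of 0.14. Past 1.5-fold there was 1 gene, beside 3.63% of all genes higher and 4.06% lower by as much. That was LONP1, the matrix protease, at 368 against 208 and 0.83. SPG7, which joins AFG3L2 in the protease, had 0.51 by its brightest probe, at 486 against 341, and -0.060 by a probe near the floor. The prohibitin genes PHB1 and PHB2, whose products surround the protease, had 0.15 and 0.21. OMA1 and OPA1, the stress protease and the fusion GTPase it cuts, had -0.21 and -0.36.

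Genes of the cristae, where GHITM acts, were nearer to 0 than GHITM. In that list 4 of 14 genes were higher and 10 lower, beside 49.3% higher over all genes, with a median log2 ratio of -0.077. None was past 1.5-fold, which for 14 genes is near the shares of 3.63% and 4.06% over all genes. CYCS, encoding cytochrome c, read 66.9 against 93.0, a log2 ratio of -0.48 and the lowest of the list. IMMT, the core of the MICOS complex, had 0.12 at 1289 against 1186. The 4 genes listed for the outer membrane had log2 ratios above 0, as did 49.3% of all genes. The channel genes VDAC1, VDAC2 and VDAC3 had 0.18, 0.16 and 0.13, and TSPO had 0.37. Among 11 genes that follow mitochondrial content, 3 were higher and 8 lower, around a median of -0.044. They held TOMM40, the import pore gene, at 0.88, and PPARGC1A, a coactivator of mitochondrial growth, at 138 against 243 and -0.82. Over these 6 mitochondrial lists, 55 genes were above the floor and the median log2 ratio was -0.0041. GHITM, chosen for its low ratio, was the only 1 past 2-fold. Over all genes, 0.607% were more than 2-fold lower and 0.341% more than 2-fold higher. Besides it, PPARGC1A and MICU2 were more than 1.5-fold lower, and SLC8B1, TOMM40 and LONP1 more than 1.5-fold higher. Leaving out GHITM, which was chosen for its low ratio, these 2 lower and 3 higher genes were near the 4.06% and 3.63% of all genes.

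The calcium genes around TMBIM6 and TMBIM4 were mixed. Of 14 genes of calcium handling in the endoplasmic reticulum, 9 were higher and 5 lower, with a median log2 ratio of 0.049. ITPR3 and ITPR1, receptors through which calcium leaves that store and to which TMBIM6 binds, went opposite ways, at 1943 against 1227 and 0.66 for ITPR3 and at 98.2 against 163 and -0.73 for ITPR1. The calcium pump gene ATP2A2 had 3 probes, all lower, at -0.45, -0.39 and -0.20. In the Golgi list, 4 of 5 genes were lower and 1 higher, around a median of -0.17, beside 49.3% higher over all genes. None of the 5 was past 1.5-fold, near the shares of 4.06% and 3.63% over all genes. TMBIM4's ratio of -0.16 lay near those of the Golgi ion transporter genes ATP2C1 and TMEM165, at -0.20 by its brightest probe and at -0.21.

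**Figure D3:**
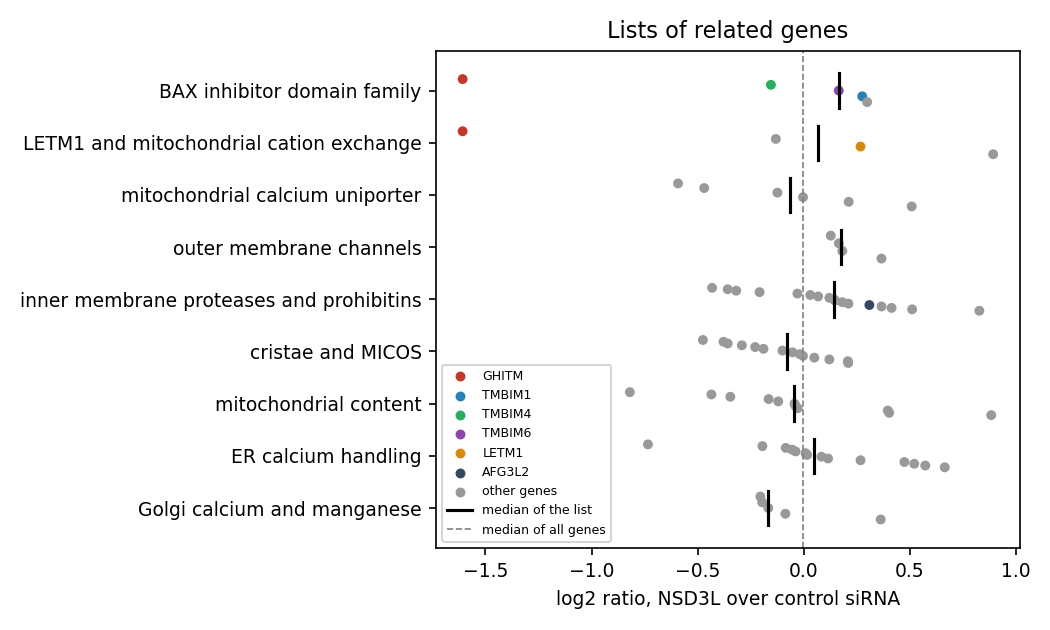
Log2 ratio, NSD3L over control siRNA, for each gene above the floor in 9 lists of related genes (points, 1 brightest probe per gene, the 6 named genes in colour), with the median of each list (black bar) and of all genes (dashed). GHITM at -1.61 stands left of every other point, the next being PPARGC1A at -0.82.

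The log2 ratio on these arrays varied with gene density, counted as protein-coding neighbours within 500 kb of a gene's midpoint, and the 6 genes differed in it. TMBIM4 had 4 such neighbours, GHITM 6, AFG3L2 11, LETM1 15, TMBIM1 20 and TMBIM6 23. The 10169 genes above the floor that had a position as protein-coding genes in the gene table were divided by density into 10 groups of like size, and the rest of the 10545 were left out. The median log2 ratio was -0.079 for the group of GHITM and -0.12 in that of TMBIM4. It was -0.036 for AFG3L2's group, 0.037 for LETM1's and 0.071 for the group of TMBIM1 and TMBIM6. GHITM lay 1.53 below the median of its group, in which 2 of 1017 genes were as low, itself included. The differences from their own groups' medians were -0.035 for TMBIM4, 0.094 for TMBIM6, 0.20 for TMBIM1, 0.23 for LETM1 and 0.34 for AFG3L2. The part of gene density in these ratios was not tested.

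**Figure D4:**
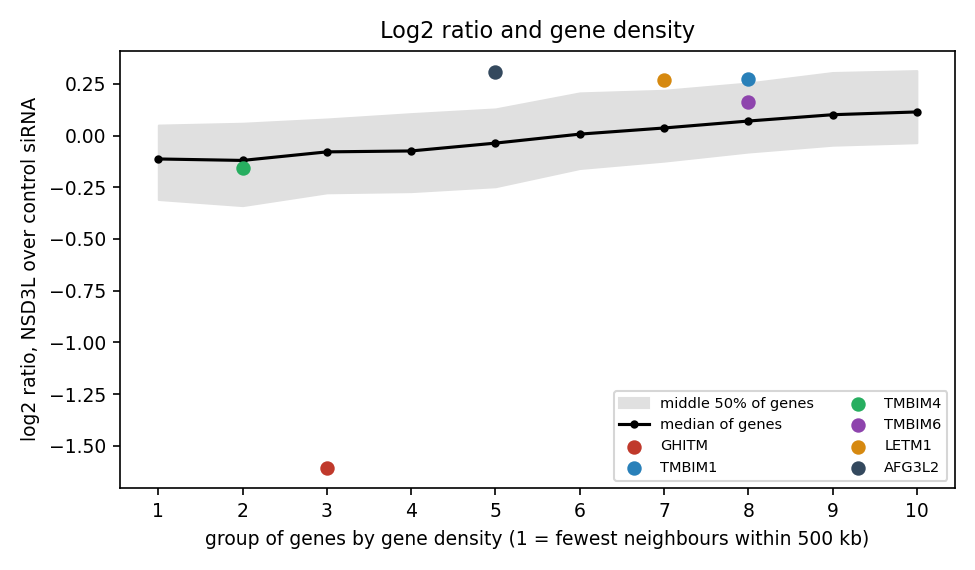
Log2 ratio, NSD3L over control siRNA, by group of gene density, 1 being the group with the fewest protein-coding neighbours within 500 kb. The line and band are the median and the middle 50% of genes in each group, and coloured points are the 6 genes, of which GHITM lies at -1.61 in group 3 under a group median of -0.079.

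GHITM spans chr10:84139509-84153568 in the GRCh38.p14 gene table. Of its 6 protein-coding neighbours within 500 kb, GPR15LG, CDHR1, LRIT2, LRIT1 and RGR lie within 106 kb, and none of them was above the floor on both arrays. The other was CCSER2, 277 kb away, which read 135 against 224, a log2 ratio of -0.72, also more than 1.5-fold lower. With 1 neighbour measured, the region around GHITM cannot be described further.

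LETM1, at chr4:1811479-1856156, lies beside NSD2, the close relative of NSD3. All 3 NSD2 probes were higher with the NSD3L siRNA, at log2 ratios of 0.62, 0.33 and 0.39, the brightest reading 124 against 80.6. TACC3, on the other side of LETM1, read 406 against 266, a log2 ratio of 0.61. Of 8 measured neighbours of LETM1, 6 were higher and 2 lower, beside 49.3% higher over all genes. NSD2 and TACC3 were the highest of the 8. The median of the 8 was 0.16, beside 0.037 for LETM1's density group, while LETM1 itself had 0.27.

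The other 4 genes had neighbours on both sides of 0, read here beside 49.3% higher over all genes. TMBIM1, at chr2:218274197-218292503, had 7 higher and 5 lower neighbours with a median log2 ratio of 0.099. TMBIM4, at chr12:66135846-66169996, had 3 measured neighbours, from -0.43 for the adjacent LLPH to 0.28 for HMGA2. TMBIM6, at chr12:49741557-49764934, had 5 higher and 6 lower, with a median of -0.054. AFG3L2, at chr18:12328944-12377227, had 4 higher and 3 lower, with a median of 0.027, and shares 883 bases with TUBB6, at 1947 against 1911 and 0.027.

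**Figure D5:**
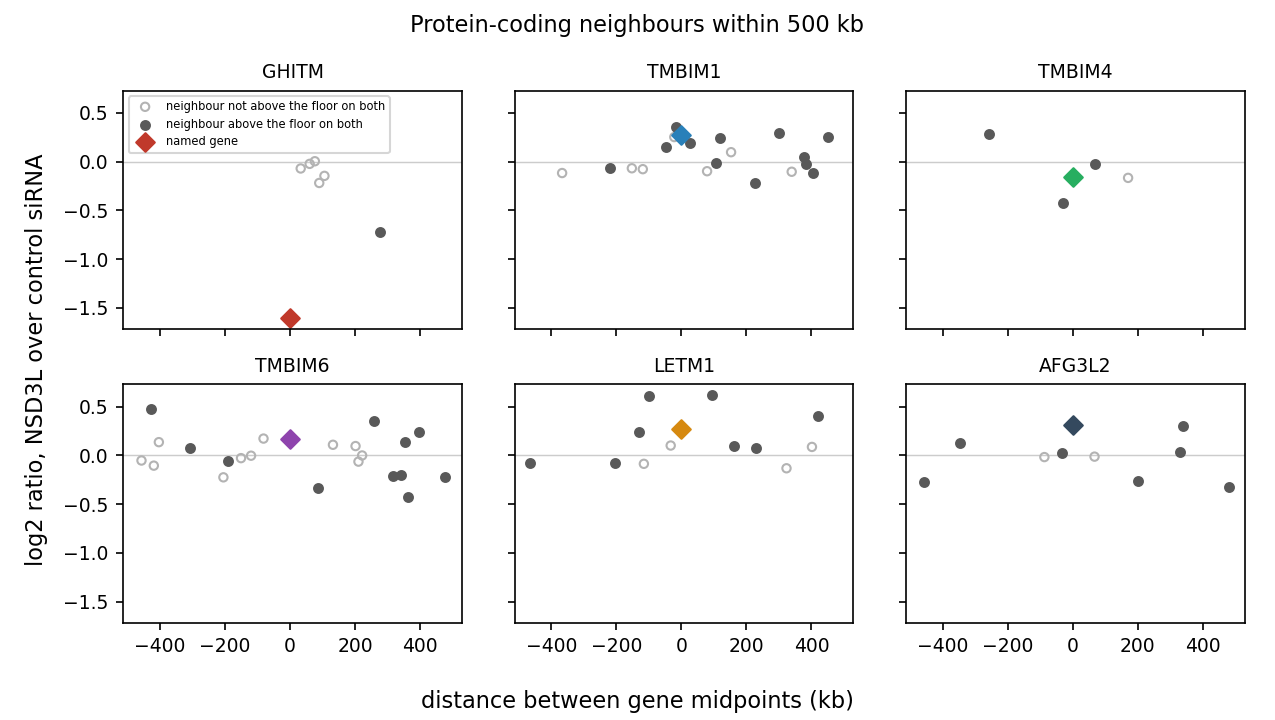
Log2 ratio, NSD3L over control siRNA, for the protein-coding neighbours of each of the 6 genes, against the distance between gene midpoints in kb, up to 500 kb. Filled circles are neighbours above the floor on both arrays, open circles are not, and the diamond is the named gene; GHITM has 1 filled neighbour, CCSER2 at -0.72.

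The genes that read most like GHITM were found as the nearest points in the plane of the log2 intensities of the 2 arrays. They were COMMD6, at 1179 under the NSD3L siRNA against 2124 and a distance of 0.55 on the log2 scale, and CEBPB, encoding a C/EBP transcription factor, at 1218 against 2140 and a distance of 0.57. CXCL8, the neutrophil chemokine gene, at 760 against 2149, was 0.58 away, and GNG11, a G-protein subunit gene, at 1433 against 2510, was 0.61 away. All 4 read lower with the NSD3L siRNA, which a place near GHITM in that plane entails. Their log2 ratios, in that order, were -0.85, -0.81, -1.50 and -0.81, each smaller in size than the -1.61 of GHITM. With 2 arrays this likeness rests on 2 values per gene, and probe brightness is not a level that compares between genes.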

How the data were processed

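One Illumina HumanWG-6 array per siRNA was analysed. Per the submitters' processing notes, BeadStudio was used; the version, background correction and normalization were not given in the sources used here. The authors' deposited intensities are linear, 1 per probe and array for 48701 probes. Their sorted values differ by at most 0.025 on the log2 scale between arrays, the pattern that quantile normalization leaves. Detection p-values were not used here, and the number of arrays limits the precision.

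Ratios were computed with pandas 2.3.3 and numpy 2.4.6, without offset or scaling, in code tested on simulated data. The floor was 2 times the mode of each array, the peak of a kernel density below the 75th percentile (scipy 1.17.1), less its 1st percentile. Of the probes, 23687 had 1 gene symbol, 35 several and 24979 none; symbols were updated by gene number, matched in RefSeq for 23651. The platform record behind the annotation differs from the array version given in the series design. That difference was left unresolved and bears on every gene name used here, that of the single GHITM probe included. The brightest probe stood for a gene. Genes were counted past 2-fold, the threshold of the series description, and past 1.5-fold.

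The 6 genes, all lists and the alternatives were chosen with earlier results of these data known. Named were the 6 genes, the members of each list with the largest ratios and its defining members, the 4 genes nearest to GHITM, and genomic neighbours. CCSER2, HMGA2, SMDT1, GRINA, IMMT and the prohibitin genes were chosen to complete these with their values seen. Alternatives were the mean over probes, subtraction of the mode, an offset of 16, median centring, quantile normalization, lowess on intensity and on gene density (span 0.3, statsmodels 0.14.6), and 3 other floors.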

Additional observations from a re-analysis of the deposited data

How the results depend on the processing

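Each of the 6 log2 ratios was recomputed under 10 alternatives, not all of which could move it. The mean over probes could not, with 1 probe per gene, nor could the other floors, which do not enter a ratio. Quantile normalization left the 6 ratios unchanged, and median centring shifted them by 0.00014. The alternatives left were subtraction of the mode, the offset, and lowess on intensity and on gene density. Under each of these, all 6 ratios moved by less than the SD of similarly bright probes and kept their sign. GHITM ranged from -1.64, with the mode of each array subtracted, to -1.50, with the gene density trend removed. It was past 2-fold under each of these, where no other of the 6 genes was. TMBIM4 ranged from -0.16 to -0.033, TMBIM6 from 0.083 to 0.18, TMBIM1 from 0.20 to 0.43, LETM1 from 0.23 to 0.45 and AFG3L2 from 0.28 to 0.39. Subtracting the mode enlarges the ratios of dim probes and gave 1270 genes more than 1.5-fold lower and 1128 higher, against 428 and 383 as reported. Under the other 9 alternatives these counts stayed within 1.5 times. No paired analysis was possible because each group holds 1 array, and for the same reason no replicate could be left out. Each of the 6 genes rests on 1 probe, and the background kept in the intensities draws ratios of dim probes such as those of LETM1 and TMBIM1 toward 0.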
